A study of Mus musculus with 4 samples.

Results

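The protein disulfide isomerases of the endoplasmic reticulum (ER) were examined in muscle and heart of mice lacking MG56. The family was taken as 9 genes of ER oxidoreductases with a thioredoxin fold, namely Pdia3, Pdia4, Pdia5, Pdia6, P4hb, Txndc5, Txndc11, Tmx1 and Erp44. Every probe set whose annotation names one of these symbols alone was read, which gave 16 probe sets of the 34945 with 1 gene symbol, and 9 of the 18193 genes so named. RNA of heart and of tibialis anterior (TA), the fast muscle at the front of the shin, was hybridised to Affymetrix mouse arrays, on which a set of short probes reports each transcript. The 4 groups were MG56-knockout TA, wild-type TA, MG56-knockout heart and wild-type heart, all from C57BL/6J mice at postnatal day 9. MG56 is another name of Hhatl, a membrane protein of the ER and sarcoplasmic reticulum of striated muscle. The knockout RNA was pooled from 3 mice, and the wild-type RNA was pooled from several mice, their number not being given in the sources used here. Every group therefore has 1 array, no replicate error can be computed, and a ratio compares pools of RNA with no test.

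Disulfide isomerases form, break and reshuffle the disulfide bonds of secreted and membrane proteins while these fold. A pair of cysteines in a thioredoxin-like domain carries the reaction, and ER oxidases such as those of the Ero1 family hand the oxidising power on to the isomerases. Many of the genes are induced by the unfolded protein response, in which the transcription factors ATF6 and XBP1 bind promoter elements of ER chaperone genes. The best known is the ER stress response element (ERSE), which joins a CCAAT box, bound by NF-Y, to a CCACG box, bound by ATF6.

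Values are MAS5 signals, a brightness per probe set on a linear scale. Signals below 101.3, the median over all arrays, were raised to that floor, and a gene counted as measured when either array of a comparison came up to that value. A fold with 1 array under the floor is a lower bound, written "at least". Each gene was represented by its brightest probe set, judged by the mean of the 4 signals. These 9 probe sets were above the floor on all 4 arrays, so no fold of a member given from its brightest probe set is a bound. A ratio of at least 1.5-fold was counted. The arrays shared 1 scale, with trimmed means between 496.35 and 496.83. Hhatl had a signal of 1078.4 in knockout and 5491.4 in wild-type TA, and of 879.8 and 2109.5 in heart, so it was 5.09-fold and 2.40-fold lower on its only probe set. The sources used here do not say if this probe set covers the deleted sequence.

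The promoter windows of the family are shown first, and no relation between a match and a knockout ratio was tested. All 9 members had at least 1 window in the RefSeq table of GRCm38.p6, which spans 250 bases before to 50 bases from the annotated transcript start on. The windows were searched on both strands for ERSE, that is CCAAT and CCACG with 9 bases of any kind between them, with all 10 fixed letters or with 1 of them different. The ERSE stretch with all fixed letters was present in 1 of the 9 members, Pdia6, and in 37 of all 27025 genes (0.137%), or 39 of 32851 windows (0.119%). With at most 1 fixed letter different it was present in 4 members, Pdia6 included, and in 466 genes (1.72%), or 494 windows (1.5%). The matches are given below in the reading direction of the motif, each named with its gene, and capitals mark the fixed letters that match.

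Pdia6: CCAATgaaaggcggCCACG
Pdia4: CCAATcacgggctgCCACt
Pdia3: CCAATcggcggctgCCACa
Erp44: CCAATcccgaagagCCcCG

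The CCAAT box was whole in all 4, and each of the 3 imperfect matches had its differing letter in the CCACG box. The match in Pdia6 lay from base -98 to -80 of the transcript start (chr12:17266491-17266509, + strand) and that in Pdia4 from -108 to -90, on the strand opposite to the gene (chr6:47813602-47813620, + strand). In Pdia3 it lay from -29 to -11 (chr2:121413873-121413891, + strand), and in Erp44 from -126 to -108 of the one annotated start and -172 to -154 of the other (chr4:48279743-48279761, - strand). The whole windows of the 2 members with the largest knockout ratios in TA are printed so that the place of these matches can be read, with the same letters in capitals.

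Pdia4 (GRCm38.p6 chr6:47813463-47813762, - strand): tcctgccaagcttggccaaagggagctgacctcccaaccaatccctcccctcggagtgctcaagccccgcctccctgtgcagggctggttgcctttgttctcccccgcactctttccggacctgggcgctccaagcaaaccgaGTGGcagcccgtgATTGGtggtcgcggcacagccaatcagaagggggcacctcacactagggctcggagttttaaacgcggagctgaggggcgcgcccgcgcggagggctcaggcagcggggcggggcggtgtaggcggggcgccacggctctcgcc
Pdia6 (GRCm38.p6 chr12:17266339-17266638, + strand): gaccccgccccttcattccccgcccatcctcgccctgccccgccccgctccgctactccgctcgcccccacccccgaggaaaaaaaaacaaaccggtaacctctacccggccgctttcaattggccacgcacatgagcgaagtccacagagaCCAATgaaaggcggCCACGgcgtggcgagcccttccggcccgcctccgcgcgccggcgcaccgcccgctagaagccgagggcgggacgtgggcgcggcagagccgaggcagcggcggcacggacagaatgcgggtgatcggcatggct

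In the window of Pdia4 the match reads on the other strand, so the capitals show its reverse complement. The element TGACGTGG (UPRE), bound by XBP1 and ATF6, was found in Txndc11 at -102 to -95 and in 1 of the 3 windows of Txndc5 at -138 to -131. These are 2 of the 9 members, against 193 of all 27025 genes (0.714%), or 222 windows (0.676%). The end of UPRE, read on the other strand, holds the CCACG box of ERSE. The shorter ERSE-II is ATTGG and CCACG with 1 base between them, and shares that part of ERSE. It was found in 0 members and in 12 genes (0.0444%), or 12 windows (0.0365%). The amino acid response element TGATGNAAT, bound by ATF4 with its partners, was found in 0 members and in 293 genes (1.08%), or 317 windows (0.965%). P4hb, Pdia5 and Tmx1 held no match to any of these motifs in their windows, nor to ERSE with 1 fixed letter different. Pdia3, Pdia4 and Erp44 held no full motif either, only the ERSE match with 1 letter different. A match is a stretch of letters and no measured binding.

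**Figure D1:**
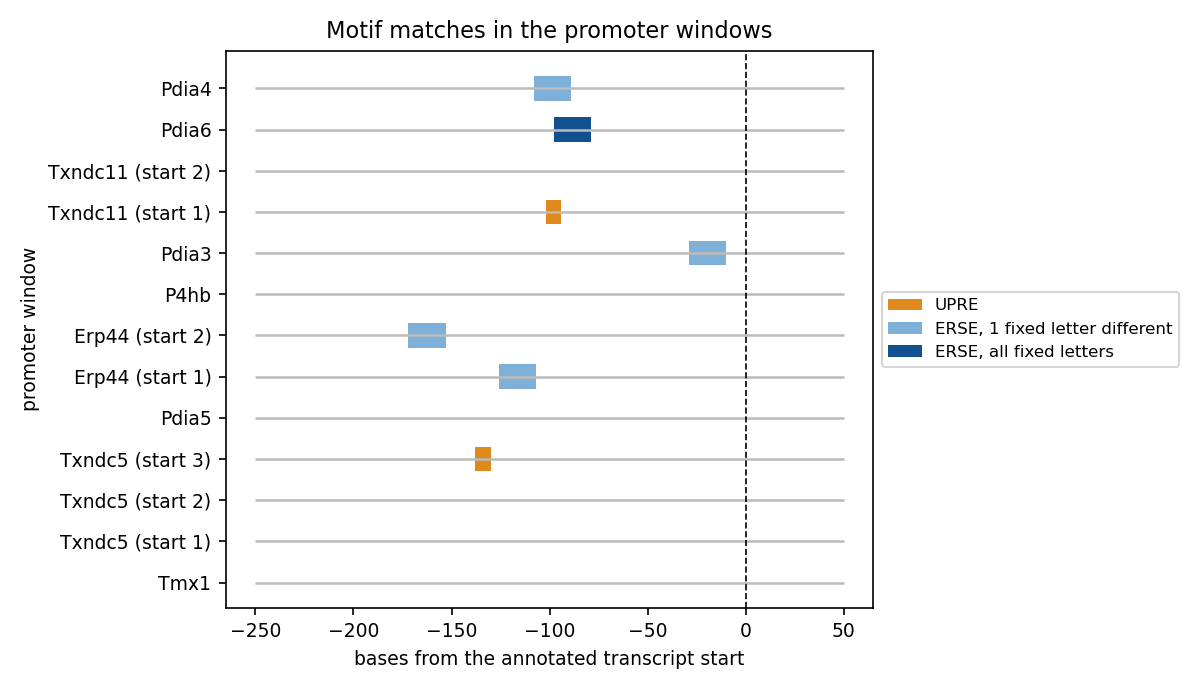
Matches of ERSE and UPRE in the promoter windows of the 9 genes, 1 line per annotated start, with distance from the transcript start in bases on the horizontal axis. The genes run from the highest knockout ratio in TA (Pdia4, top) to the lowest (Tmx1, bottom). ERSE is seen in Pdia6 with all fixed letters and in Pdia4, Pdia3 and Erp44 with 1 letter different. Txndc11 and P4hb, which lie among these genes in that order, have no match of ERSE.

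In knockout TA the family stood higher than in wild-type TA, but unevenly. Of the 9 genes, 5 were at least 1.5-fold higher and 0 were 1.5-fold lower, while among all 11528 genes measured in TA 4.2% were 1.5-fold higher and 4.44% lower. The median log2 ratio was 0.60 for the members and -0.008 for all genes, and 8 members lay above 0 against 48.7% of all genes. The ratios ran from -0.05 for Tmx1 to 2.97 for Pdia4. The count was 2 at 2-fold, where 0.954% of all genes passed, and 0 at 2-fold lower, where 0.92% did.

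Pdia4 (ERp72), a soluble isomerase with several active thioredoxin domains, had the largest difference. Its signal was 3674.5 in knockout TA, 470.1 in wild-type TA, 507.9 in knockout heart and 556.7 in wild-type heart (probe set 1416497_at). The knockout TA array stood alone, and the other 3 arrays lay close together. The TA ratio was 7.82-fold, which was rank 6 of 11528 genes. The gene's other probe set (1450620_at) was under the floor on all 4 arrays, with signals from 5.8 to 33.0, and gives no ratio.

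Pdia6 (P5), an isomerase that works with the ER chaperone BiP and also restrains signalling by the stress sensor IRE1, followed. Its signal was 10008.0 in knockout TA, 2467.8 in wild-type TA, 2231.8 in knockout heart and 2442.0 in wild-type heart. Again only the knockout TA array was high, 4.06-fold above wild type, at rank 19 of 11528. A dimmer probe set (1430983_at) had signals of 267.1 and 54.8 in knockout and wild-type TA, at least 2.64-fold higher, and was under the floor in both hearts.

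Txndc11 (EFP1), a membrane-bound member first described as a partner of the Duox oxidases, was also among the higher genes. Its signal was 321.8 in knockout TA, 179.0 in wild-type TA, 275.6 in knockout heart and 259.8 in wild-type heart. Wild-type TA was the lowest array and knockout TA the highest, 1.80-fold apart, with both hearts between them. Its other probe set was under the floor on all 4 arrays.

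Pdia3 (ERp57) is the isomerase of glycoproteins, which it meets through the lectin chaperones calnexin and calreticulin. It had a signal of 7110.9 in knockout TA, 4040.7 in wild-type TA, 3031.1 in knockout heart and 4364.9 in wild-type heart. The wild-type arrays of both tissues lay close together, with knockout TA above them and knockout heart below. The TA ratio was 1.76-fold, and a dim probe set (1445330_at), at 163.3 and 85.6, was at least 1.61-fold higher in knockout TA.

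P4hb, the founding isomerase PDI, is also the beta subunit of collagen prolyl 4-hydroxylase. Its signal was 14980.1 in knockout TA, 9871.6 in wild-type TA, 7668.0 in knockout heart and 7467.3 in wild-type heart. The knockout TA array was the highest and the hearts were the lowest. At 1.52-fold P4hb was just inside the limit, and Erp44 was just outside it at 1.49-fold.

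Erp44, which cycles between ER and Golgi and returns Ero1 oxidases and unassembled clients, had a signal of 2221.7 in knockout TA, 1487.4 in wild-type TA, 1053.6 in knockout heart and 1031.3 in wild-type heart. Its other probe set (1423246_at) gave 1239.2 and 956.4 in TA, 1.30-fold higher. Both probe sets were thus higher in knockout TA and below the limit of 1.5-fold.

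The last 3 members differed less in TA. Pdia5 (PDIR), an isomerase that acts on the stress sensor ATF6, had 595.8 and 478.4 in knockout and wild-type TA, 1.25-fold higher. Txndc5 (ERp46), an efficient donor of disulfides, had 2336.3 and 1924.3, 1.21-fold higher, and its other probe set (1423746_at) gave 1714.9 and 1407.2, 1.22-fold higher. Tmx1, a transmembrane isomerase with a preference for membrane-bound clients, had 1690.2 and 1750.1, 1.04-fold lower, and 1128.7 and 1333.2 on its other probe set (1451195_a_at), 1.18-fold lower. Across the family 7 genes had a second probe set, 5 of these were measured in TA, and 5 of 5 pointed the same way as the brightest one.

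**Figure D2:**
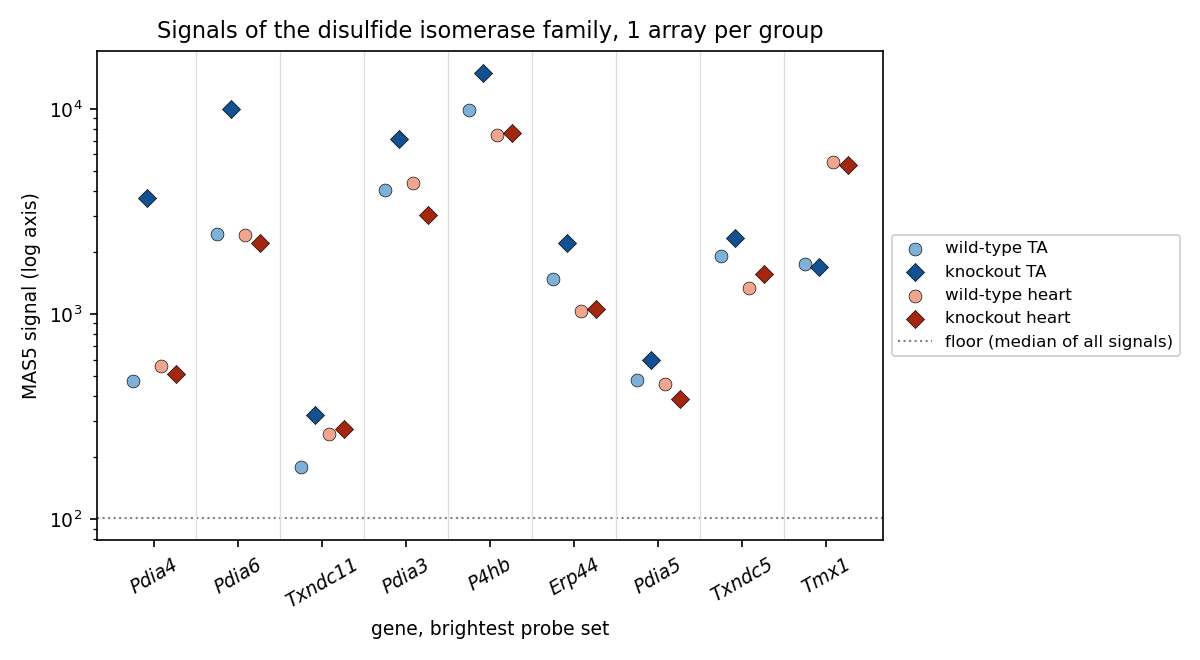
MAS5 signal (log axis) of the brightest probe set of each gene on the 4 arrays, with 1 point per array and the floor of 101.3 as a dotted line. The knockout TA point of Pdia4 (3674.5) and of Pdia6 (10008.0) lies far above the other 3 points of its gene, and for Tmx1 the points split by tissue; probe sets differ in brightness, so levels are compared within a gene only.

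Without replicates, the spread among genes of like brightness gives the only scale for these ratios. For each member the genes whose signal (geometric mean of the arrays compared) lay within 2-fold of its own were taken. In TA, 6 members lay above the central 90% of the ratios of such genes, which leaves 5% of them above by construction, and 0 lay below. These were Pdia3, Pdia4, Pdia6, P4hb, Txndc11 and Erp44. For Pdia4 the central 90% of 3843 genes ran from -0.47 to 0.51 on the log2 scale against its own 2.97, and 0.104% of them were as high. For Txndc11 it ran from -0.70 to 0.61 against 0.85, and for P4hb from -0.40 to 0.30 against 0.60. Pdia5 at 0.32 and Txndc5 at 0.28 were inside their ranges, whose upper ends were 0.54 and 0.49. This spread is that of genes on one pair of arrays and not an error of the member.

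In heart the signals of the family differed little between the genotypes. Of the 9 genes, 0 were 1.5-fold higher and 0 were 1.5-fold lower, where 2.67% and 4.19% of all 11452 measured genes were. Counts of 0 among 9 genes say little beside those shares. The median log2 ratio was -0.05 for the members and -0.002 for all genes, with 4 members above 0 and 5 below. Pdia4 and Pdia6, so high in knockout TA, were 1.10-fold and 1.09-fold lower in knockout heart. Pdia3 had the largest heart ratio, 1.44-fold lower, and was the only member outside the central 90% of genes of like brightness (log2 ratio -0.53, range -0.38 to 0.39). Its second probe set was under the floor in both hearts and gives no check.

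The other heart ratios lay near 1. Pdia5 was at 385.2 and 453.7 in knockout and wild-type heart, 1.18-fold lower, and Tmx1 at 5307.5 and 5495.2, 1.04-fold lower. P4hb, Erp44 and Txndc11 were 1.03-fold, 1.02-fold and 1.06-fold higher. For Txndc5 the probe sets disagreed, with 1570.0 and 1336.4 on one (1.17-fold higher) and 1036.3 and 1283.7 on the other (1.24-fold lower). Erp44 also had its other probe set lower in knockout heart, at 697.5 and 821.0. Neither gene has a settled direction in heart.

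Set side by side, the log2 ratio in TA minus that in heart had a median of 0.56 over the members and of 0.0 over all 10802 genes measured in both tissues. At least 1.5-fold apart with TA higher were 4 members, Pdia4, Pdia6, Pdia3 and Txndc11, against 6.44% of all genes, and 0 were apart the other way, against 5.1%. The difference was 3.10 for Pdia4, at rank 5 of 10802, 2.15 for Pdia6, at rank 15, 1.34 for Pdia3, at rank 66, and 0.76 for Txndc11. Pdia5, P4hb and Erp44 lay between 0.55 and 0.56, just under the limit, and Txndc5 had 0.05. Tmx1 had a log2 ratio of -0.05 in both tissues. Whether the tissues differ cannot be tested with 1 array per group.

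**Figure D3:**
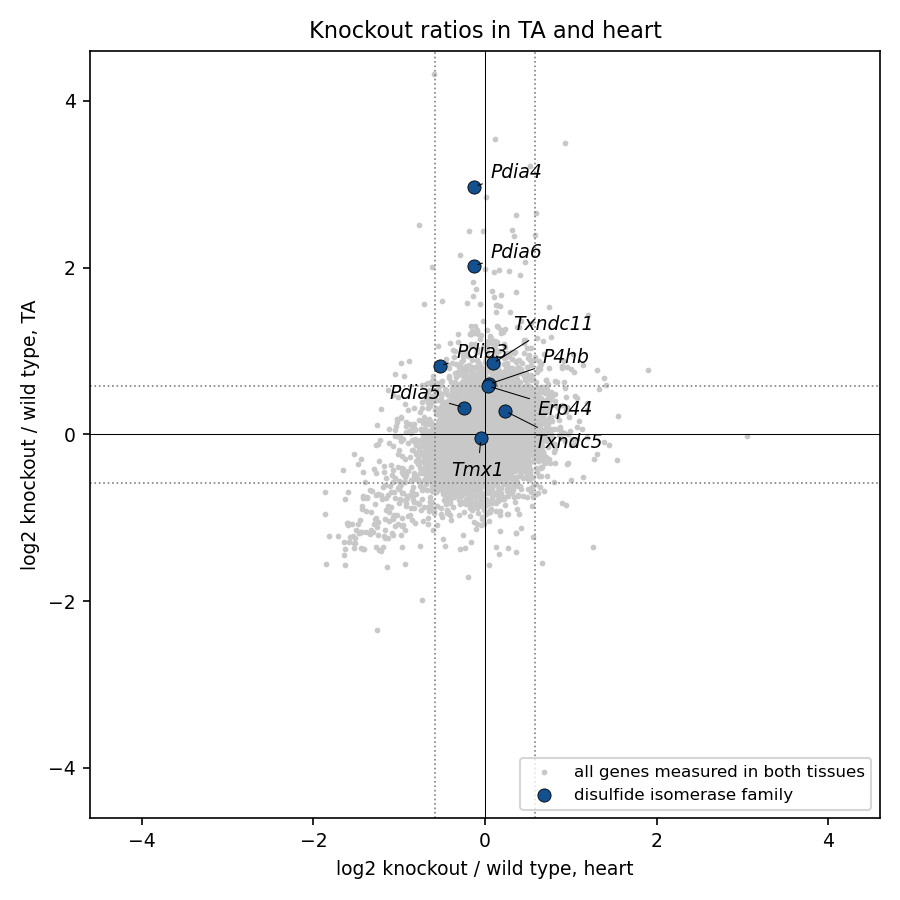
Log2 ratio of knockout over wild type in heart (horizontal) and TA (vertical), with all genes measured in both tissues in grey, the 9 family members in blue and 1.5-fold as dotted lines. Pdia4 (2.97 in TA) and Pdia6 (2.02) stand at the top of the cloud with heart ratios of -0.13, while Tmx1 lies at its centre.

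Between the wild-type tissues all members but Tmx1 lay less than 1.5-fold apart on their brightest probe sets. Of the 9 genes, 0 were 1.5-fold higher in TA than in heart and 1, Tmx1, was 1.5-fold lower. Among all 11872 measured genes 14.5% were higher and 18% lower. Counts of 0 and 1 among 9 genes say little beside those shares. The median log2 ratio of TA over heart was 0.02 for the members and -0.069 for all genes. This comparison shares its wild-type arrays with the knockout comparisons. In bulk RNA, fewer cells of a type and less RNA per cell cannot be told apart.

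Tmx1 was 3.14-fold lower in wild-type TA than in wild-type heart, at 1750.1 against 5495.2, and 3.21-fold lower on its other probe set, at 1333.2 against 4273.3. It was outside the central 90% of genes of like brightness, which ran from -1.14 to 1.32 against its -1.65. Both knockout arrays kept to the level of their tissue. Txndc5 and Erp44 were 1.44-fold and P4hb 1.32-fold higher in wild-type TA, Txndc11 was 1.45-fold and Pdia4 1.18-fold lower, and Pdia3, Pdia5 and Pdia6 were within 1.08-fold. With each ratio centred on the median of all genes, Txndc5 and Erp44 reached 1.5-fold higher in TA.

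In the list of other ER genes with a thioredoxin fold, 4 of 10 measured genes were at least 1.5-fold lower in wild-type TA than in heart and 0 were higher, where 18% and 14.5% of all genes were. These were Tmx4, 3.53-fold lower (1643.8 against 5799.9), Tmx2, 3.47-fold (1301.9 against 4514.8), Txndc12, 2.20-fold (608.7 against 1337.5), and Tmx3, 1.71-fold. Tmx2, Tmx3 and Tmx4 are transmembrane proteins like Tmx1, and Txndc12 is soluble. On other measured probe sets the log2 ratio of TA over heart was -0.86 for Tmx2. For Tmx3 it was between -0.53 and -0.36, the last of these a bound, so whether Tmx3 passed depended on the probe set. For Tmx4 it was -0.35, also a bound.

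**Figure D4:**
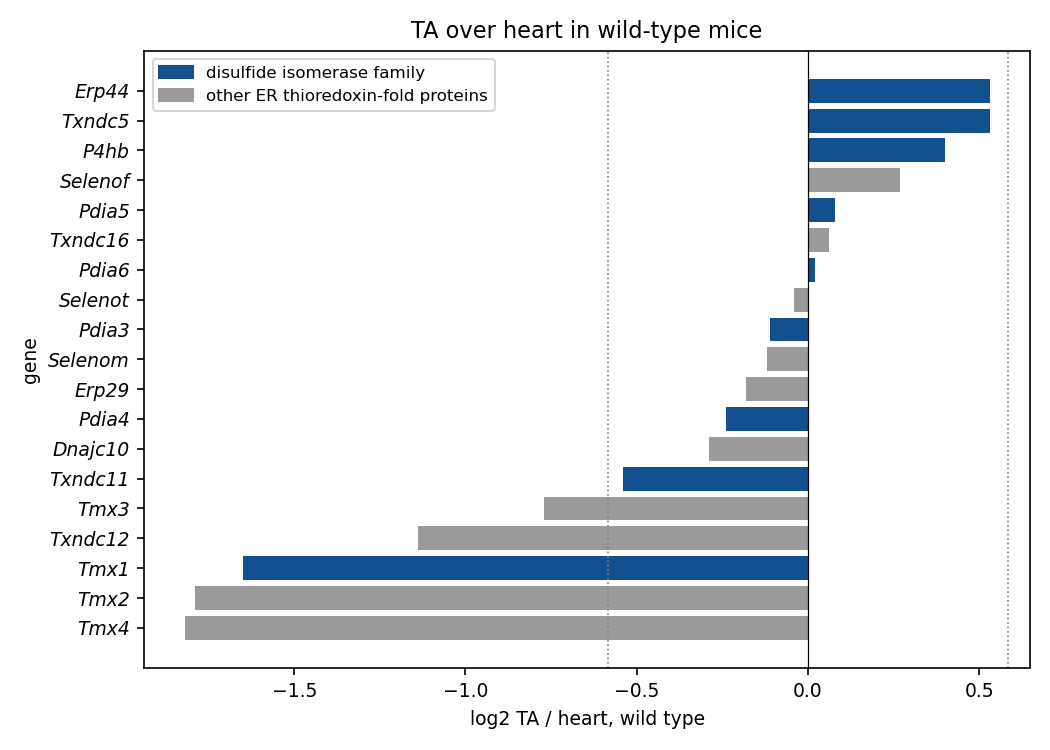
Log2 ratio of TA over heart in wild-type mice for the 9 family members (blue) and the 10 measured genes of the list of other ER proteins with a thioredoxin fold (grey), with 1.5-fold as dotted lines. Tmx1 (-1.65) lies beside Tmx2 (-1.79) and Tmx4 (-1.82), and the other 8 members lie between -0.54 and 0.53.

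A list of other ER genes with a thioredoxin fold had ratios near 1 on their brightest probe sets. At least 1.5-fold higher and lower were 4.2% and 4.44% of all genes in TA, and 2.67% and 4.19% in heart. Of the 15 genes of the list, 10 were measured, and on the brightest probe sets 0 of these passed 1.5-fold in either tissue. A count of 0 in so short a list says little beside those shares. The log2 ratios in TA had a median of -0.03, and those in heart a median of -0.19. The brightest of them, the selenoproteins Selenof and Selenot, were 1.06-fold and 1.09-fold lower in knockout TA. Pdia2, Pdilt, Erp27, Agr2 and Agr3, which are known from pancreas, testis and mucous epithelia among other tissues, were under the floor on all 4 arrays. Tmx2 had a log2 ratio of 0.12 in TA on its brightest probe set and -0.80 on another, so it has no settled direction in TA. In heart both probe sets were lower in the knockout, at -0.49 and -0.69, the second of these past 1.5-fold.

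In the list of oxidases and peroxidases, 1 of 10 genes was 1.5-fold higher in knockout TA and 0 were lower, and 0 passed either way in heart. Of all genes, 4.2% were higher and 4.44% lower in TA, and 2.67% and 4.19% in heart. Counts of 0 or 1 in so short a list say little beside those shares. The gene that passed was Ero1b, an oxidase of PDI. Its signals were 681.6 in knockout TA, 175.0 in wild-type TA, 323.5 in knockout heart and 267.7 in wild-type heart. Only the knockout TA array was high, 3.89-fold above wild type. Its paralog Ero1a was at 469.1 and 426.1 in TA, 1.10-fold higher, on its brightest probe set. On another it was at 506.6 and 287.2, a log2 ratio of 0.82 that is past 1.5-fold, so whether Ero1a passed depended on the probe set. Prdx4, a peroxidase that can oxidise PDI, was 1.31-fold lower in knockout TA and 1.37-fold lower in knockout heart. Other measured probe sets of Prdx4 gave log2 ratios of -0.34 and 0.01 in TA and of -0.26 and -0.43 in heart. Whether Prdx4 was lower in TA thus depended on the probe set. The other 2 probe sets of Ero1b were under the floor on all arrays.

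Partners and clients of the family were split. In TA 4.2% of all genes were at least 1.5-fold higher and 4.44% lower, and in heart 2.67% and 4.19%. Of 14 measured genes of the list of partners, 6 were at least 1.5-fold higher in knockout TA and 0 were lower. In heart 0 of 13 passed either way. Among the higher ones were genes of the lectin cycle in which Pdia3 works, Calr at 2.38-fold (15302.4 against 6427.7), Uggt1, the glycoprotein folding sensor, 2.28-fold (1213.6 against 532.3) and Canx 1.82-fold (12361.5 against 6792.0). Uggt2, the paralog of Uggt1, was at 265.3 and 283.8, 1.07-fold lower, and the lectin chaperone gene Clgn was under the floor. The other measured probe set of Uggt1 and the further ones of Calr gave log2 ratios of 1.30, 1.78 and 1.81, and those of Canx 1.23 and 0.38. The chaperones Hspa5 (BiP), partner of Pdia6, and Hsp90b1 were 3.85-fold and 3.56-fold higher. Other probe sets gave log2 ratios of 2.36 and 0.76 for Hspa5 and of 2.79 for Hsp90b1, so the size of both depended on the probe set. The sixth was the calcium pump gene Atp2a2 at 2.17-fold, whose other measured probe sets gave log2 ratios from 0.40 to 1.55.

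The collagen hydroxylase in which P4hb serves as beta subunit showed no such ratio in its catalytic subunits. P4ha1 was at 818.0 and 815.4 in knockout and wild-type TA, and P4ha2 at 587.7 and 694.3, 1.18-fold lower, while P4ha3 was under the floor. In the list of collagen prolyl and lysyl modification 0 of 11 measured genes passed 1.5-fold in TA, and 1, P3h2, was 1.58-fold higher in heart. Its signals there were 216.5 and 137.3. P4ha1, P4ha2 and P4ha3 also belong to the list of partners. The thioredoxin and glutaredoxin genes outside the ER had 0 of 16 past 1.5-fold in TA and 0 of 17 in heart, with medians of 0.03 and -0.05. The brightest of these were Prdx2 and Txn1, 1.08-fold and 1.04-fold lower in knockout TA. Beside this list and that of collagen modification, 4.2% of all genes were higher and 4.44% lower in TA. In heart the shares of all genes were 2.67% and 4.19%. Counts of 0 or 1 in lists this short say little beside them.

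**Figure D5:**
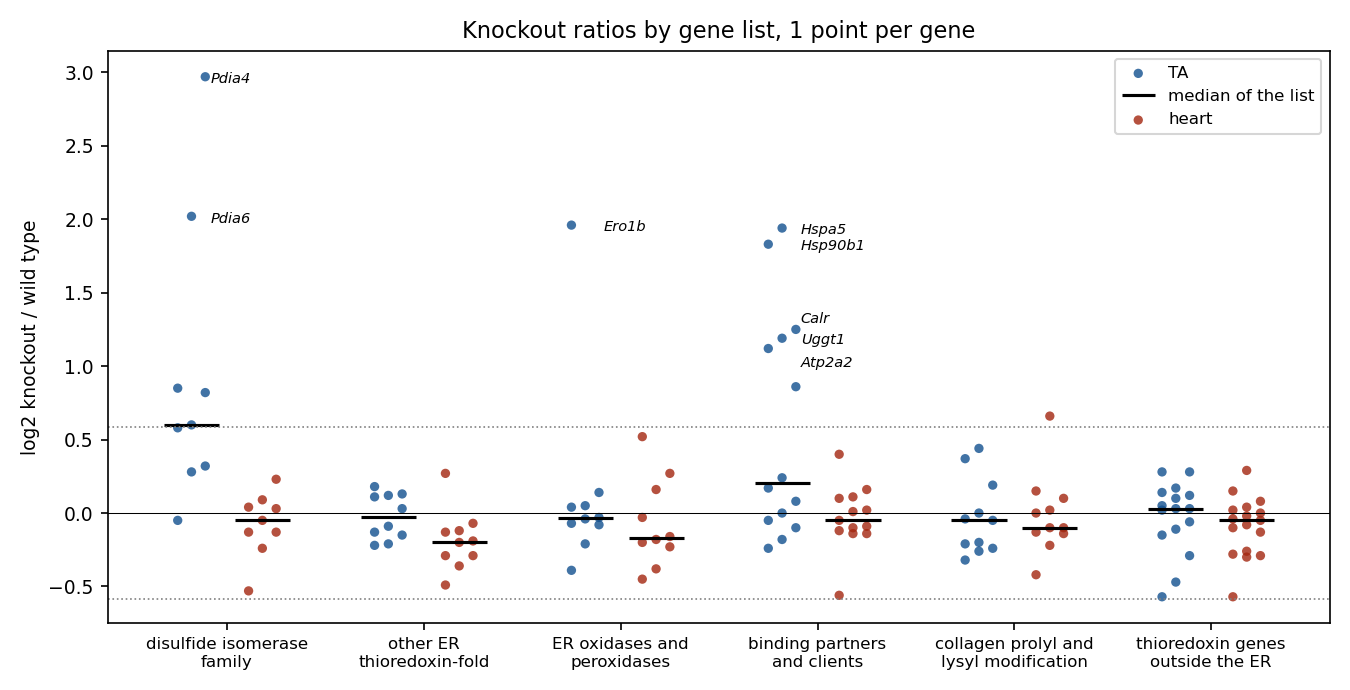
Log2 ratio of knockout over wild type for each measured gene of 6 lists, in TA (blue) and heart (red), with the list median as a bar and 1.5-fold as dotted lines. In TA the family (median 0.60) and some partners lie high, Ero1b (1.96) is the highest of the oxidases on the brightest probe sets plotted, and the thioredoxin genes outside the ER gather around 0.

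The genes whose pattern came nearest to the family's median (log2 ratios of 0.60 in TA, -0.05 in heart and 0.02 for TA over heart) were found by Euclidean distance over the 3 ratios, among 10762 genes. They were Snhg1, Dnttip2, 2610316D01Rik, Pemt and Ccdc127, at distances of 0.043 to 0.104. For 2610316D01Rik and Pemt a heart signal was under the floor (13.2 in wild-type and 82.2 in knockout heart). The heart ratios of both are therefore bounds, as is the ratio of TA over heart of 2610316D01Rik, and their nearness depends on the floor. Snhg1, a host transcript of small nucleolar RNAs, had signals of 3757.5 in knockout TA and 2416.7 in wild-type TA. Within the family the closest pair was P4hb and Erp44, 0.13 apart, and Pdia4 was 0.98 from Pdia6 and 3.33 from Tmx1. The likeness rests on 4 arrays.

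The tissues carried their own markers. Of 14 skeletal muscle markers, 14 were at least 1.5-fold higher in wild-type TA than in heart, and of 12 cardiac markers 11 were lower. Plasma cells, which hold much disulfide isomerase, had 5 of their 8 markers under the floor in both TA arrays, Jchain, Cd79a, Tnfrsf17, Irf4 and Pou2af1. The summed signal of that list was 1917.3 in knockout and 1293.6 in wild-type TA. Derl3, an ER-associated degradation gene that the unfolded protein response also induces, was 5.21-fold higher (1059.1 against 203.1), and the other measured markers were at 152.1 and 106.9 (Mzb1) and at 595.5 and 775.2 (Sdc1). For the other lists the sums of the TA pools lay closer. The summed signals in knockout and wild-type TA were 448007.7 and 509519.2 for the 14 skeletal muscle genes and 44419.9 and 55559.2 for the 12 cardiac genes. They were 154854.4 and 171060.8 for 9 fibroblast and matrix genes, and 10370.0 and 11791.6 for 8 endothelial genes. The sums were 9374.6 and 9071.4 for 8 leukocyte genes and 18034.8 and 16931.7 for 5 Schwann cell genes. The summed signals were 21795.7 and 22545.5 for 6 adipocyte genes, 635.1 and 698.9 for 5 red blood cell genes and 20827.8 and 24842.6 for 8 cartilage and tendon genes. A sum follows its brightest genes and does not measure cell content. In knockout TA, Fabp4 gave 21203.2 of the adipocyte sum and Actc1 29977.0 of the cardiac sum. Single markers past 1.5-fold in TA were Scx, 1.87-fold higher, and Egfl7, Acan and Myh2, 1.68-fold, 1.61-fold and 1.51-fold lower. Those past it in heart were Ucp1, at least 3.24-fold lower, Casq1, 2.73-fold lower, and Laptm5, 2.13-fold lower. Other measured probe sets of Laptm5 gave log2 ratios of -0.40 and 0.36 in heart. The pools of the genotypes also differed in sex-linked transcripts, with Uty 2.71-fold, Eif2s3y 1.78-fold and Kdm5d 1.57-fold higher in knockout TA. In knockout heart they were 2.29-fold, 2.21-fold and 1.64-fold higher. Xist was 1.44-fold and 1.30-fold lower in knockout TA and heart. The part of these markers in the ratios of the family was not tested.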

How the data were processed

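The values are signal intensities that the authors deposited, 1 per probe set on a linear scale, computed with MAS5, as named in the submitters' processing notes. The sources used here do not give its version, scaling target or detection calls. The lowest of the 45037 signals of an array was 0.1 and the highest 52162.1, and 49.5% to 50.7% of an array's lay at or above the floor. Precision is limited by there being 4 arrays.

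Names came from the annotation of the platform, in which 34945 had 1 symbol, 932 several and 9160 none, and only the first kind was used. Of 18193 symbols, 18145 matched RefSeq (GRCm38.p6), all 9 members among them. Log2 ratios were taken on the arrays as deposited with Python 3.11.15, numpy 2.4.6 and pandas 2.3.3, and the computation was tested on simulated data. There was no test, since each group has 1 array. The members, lists and limits were chosen with earlier results of these data known. The naming rule took all members, the genes of each pathway list (not of the marker lists) past 1.5-fold in a knockout comparison or else its 2 brightest, and the 5 nearest genes, and other names were chosen after their values were seen. Alternatives were other scalings, floors, probe set rules and a 2-fold limit. Protein sequences were not used here.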

Additional observations from a re-analysis of the deposited data

Results flagged for a closer look

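In 3 genes the knockout ratios of the tissues pointed opposite ways and lay over 1.5-fold apart, with 1 array per group, so the difference was not tested. For Pdia4 the log2 ratio in TA minus that in heart was 3.10, from 2.97 in TA and -0.13 in heart. For Pdia6 it was 2.15, from 2.02 and -0.13. For Pdia3 it was 1.34, from 0.82 and -0.53, and only there was the heart ratio outside the central 90% of genes of like brightness.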

How the results depend on the processing

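The median log2 ratio of the members ran from 0.59 to 0.82 in TA over 8 alternatives, from -0.13 to -0.01 in heart, from 0.00 to 0.08 for TA over heart, and from 0.56 to 0.76 for the difference between tissues. The highest TA value came without the probe sets whose IDs end in _x_at, _s_at or _a_at, which leaves out P4hb and Tmx1. The number of members at least 1.5-fold higher in TA ran from 4 to 6, with Erp44 as the sixth under centred ratios, and was 2 at 2-fold. For the difference between tissues the number fell from 4 to 3 at 2-fold, and also when the 75th percentile was the floor. For TA over heart it was 2 with centred ratios, against 0, and the number lower was 0 without the probe sets named above, against 1, because Tmx1 has no other. Of 274 ratios of single members under the alternatives, 2 moved by more than the robust SD of all genes (0.274 in TA, 0.255 in heart), both with the median over probe sets. They were Pdia6 in TA, at 1.71 against 2.02, and Txndc5 in heart, at -0.04 against 0.23. None of the 274 reversed a ratio past 1.5-fold. With the floor at the 75th percentile, 471.5, Txndc11 is left out in all comparisons and Pdia5 in heart. No paired analysis was possible because each group has 1 array. Leaving out a replicate was not possible for the same reason.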
